A study of Mus musculus with 6 samples.

Results

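Chemokines are small secreted proteins that draw leukocytes along a concentration gradient through receptors that couple to G proteins. The 10 genes described here are the CXC and CX3C chemokine genes Cxcl1, Cxcl2, Cxcl5, Cxcl9, Cxcl10, Cxcl12, Cxcl13, Cxcl14, Cxcl16 and Cx3cl1. They were taken by symbol from the tables of 49671 genes, and all 10 were present and passed the filter on low counts. RNA was sequenced from 6 libraries, 3 of a GFP and 3 of a Tomato fraction of Podoplanin-positive cells. The cells came from tumours of FC1199 cells, a mouse pancreatic cancer line injected into the pancreas of hosts aged 8 weeks and left to grow for 4 weeks. All hosts were Rosa-mTmG; Fabp4-Cre on a C57BL/6J background and 12 weeks old at harvest, so both fractions carry the reporter and the Cre gene. A cell of these mice makes the red protein Tomato until Cre switches it to GFP. The labels call the GFP cells stellate cell-derived and the Tomato cells non-stellate cell-derived cancer-associated fibroblasts (CAFs). The Fabp4 promoter that drives Cre is also known to be active in adipocytes, endothelium and macrophages, so colour reports the driver's history and not a single cell type. Whether the 3 replicates came from separate animals is not given, and p-values then measure only the spread between these samples.

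In the CXC family the glutamate-leucine-arginine (ELR) members Cxcl1, Cxcl2 and Cxcl5 attract neutrophils through Cxcr2 and are switched on by interleukin 1, tumour necrosis factor and NF-kB. Cxcl9 and Cxcl10 are interferon-induced ligands of Cxcr3 on T cells. Cxcl12 is the stromal ligand of Cxcr4, Cxcl13 draws B cells through Cxcr5, and Cxcl14 is a chemokine of resting tissues. Cxcl16 and Cx3cl1 (fractalkine) are made as membrane-bound proteins that proteases release, and they bind Cxcr6 and Cx3cr1. Tumour fibroblasts are known sources of several of them.

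Total counts ran from 33378377 to 42154933 per library. Levels are CPM, counts relative to a common library total that was scaled by the trimmed mean of M-values (TMM). Fold changes are log2 of GFP over Tomato with a standard error (SE), tested by edgeR over 15608 genes with a threshold of 0.05 on the adjusted p. Fibroblast markers were abundant in both fractions, with a summed level of 128111 to 142951 CPM in GFP and 62120.1 to 95056 CPM in Tomato (6 of 9 higher, none lower, top genes Col3a1 and Col1a1). The 2 genes named for each marker list have its highest CPM, whatever their own direction. The fractions also differed in markers of other cells, whose part in any result given here was not tested. In bulk samples, fewer cells of a type and less RNA per cell cannot be told apart. Macrophage and monocyte markers (15 of 15 lower, top genes Lyz2 and Cd14) summed to 158 to 250.2 CPM in GFP and 1124 to 2819 CPM in Tomato. Mesothelial markers (11 of 12 lower, top genes Slpi and Msln) summed to 178 to 226 CPM in GFP and 2174 to 2407 CPM in Tomato. Epithelial markers (6 of 10 lower, top genes Krt19 and Krt8) summed to 118 to 148 CPM in GFP and 580.3 to 704 CPM in Tomato. Krt19, Krt8 and Krt18 are in both of these lists, so the lists are not independent. With means of 173, 171 and 133 CPM in Tomato, they make up most of the epithelial sum there. Lymphatic endothelial markers (all 6 tested of 7 higher, top genes Mmrn1 and Lyve1) summed to 319 to 506 CPM in GFP and 26.1 to 81.7 CPM in Tomato, with Ccl21a at 0 in every library. Endothelial markers (6 of 11 higher and 1 lower, top genes Kdr and Tek) summed to 141 to 212 CPM in GFP and 99.2 to 123 CPM in Tomato, and neither Kdr nor Tek passed. Pericyte markers (3 of 6 higher and 1 lower, top genes Cspg4 and Kcnj8) summed to 63.6 to 104 CPM in GFP and 56.5 to 66.4 CPM in Tomato, with Kcnj8 as the lower gene. Markers of other white blood cells were low. The neutrophil list (5 of 6 tested lower, top genes S100a9 and S100a8, with Ly6g at 0 in GFP) summed to 4.12 to 6.40 CPM in GFP and 26.0 to 37.9 CPM in Tomato. Dendritic cell markers (3 of 5 tested lower, top genes Zbtb46 and Itgax) summed to 28.1 to 28.9 CPM in GFP and 50.3 to 75.1 CPM in Tomato, while Zbtb46, most of the GFP sum, averaged 24.9 CPM in GFP and 24.1 CPM in Tomato (0.05, adjusted p = 0.724). T and NK cell markers (1 of 2 tested lower, top genes Il7r and Trac) summed to 1.64 to 3.46 CPM in GFP and 4.71 to 10.1 CPM in Tomato. B and plasma cell markers (both of 2 tested lower, top genes Jchain and Cd22) summed to 0.942 to 2.15 CPM in GFP and 5.46 to 9.0 CPM in Tomato.

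Of the 10 chemokine genes, Cxcl14 and Cx3cl1 were higher in GFP and Cxcl13 and Cxcl16 were lower. Among all genes tested 13.1% were called higher and 15.7% lower, so the 2 higher and 2 lower members were a share close to the background. The fractions did not overlap for these 4 members and overlapped for the other 6, while 48.6% of all genes tested did not overlap. The median log2 fold change was 0.21 over the 10 members and 0.00 over all genes tested. With the replicate number as a block in the fit, 4 members were higher (background 20.1%) and 3 were lower (background 20.9%). Cxcl1 and Cxcl9 joined the higher genes there, and Cxcl2 joined the lower.

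**Figure D1:**
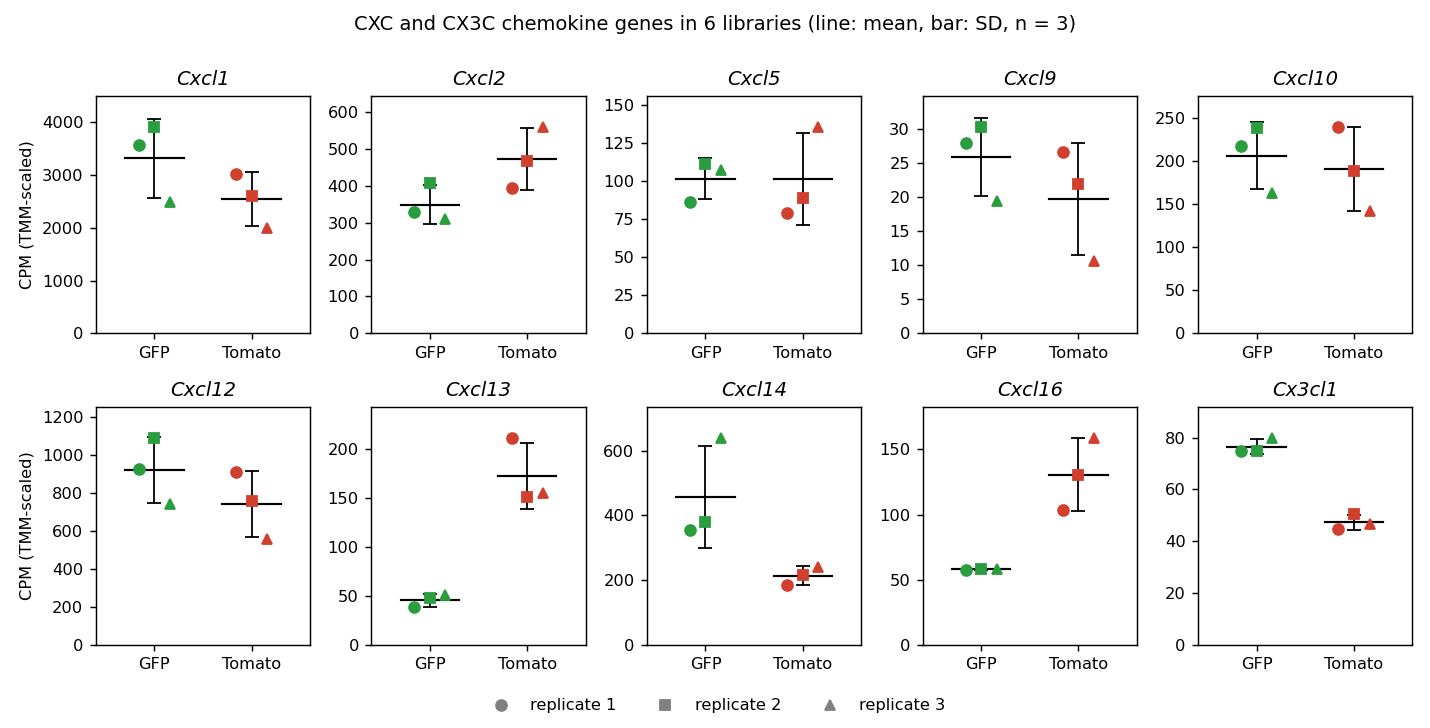
TMM-scaled CPM of the 10 chemokine genes in each library, GFP in green and Tomato in red, with marker shapes for the replicate numbers, lines for means and bars for SD (n = 3). Cxcl14 and Cx3cl1 sit above Tomato in every GFP library, Cxcl13 and Cxcl16 sit below it, and the other 6 genes overlap.

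**Figure D2:**
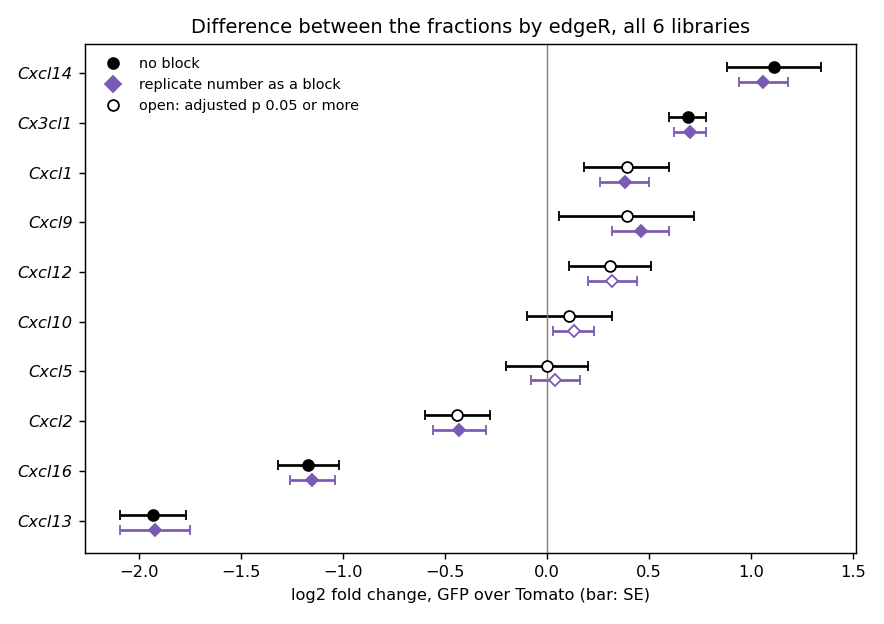
Log2 fold change of GFP over Tomato with its SE for each chemokine gene, without a block (circles) and with the replicate number as a block (diamonds). Filled symbols are past the threshold on the adjusted p: 4 of 10 without the block and 7 with it. Of all genes tested, 28.9% passed without the block and 41.0% with it. The fold changes themselves hardly move.

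The ELR genes stand together on chromosome 5 (GRCm38). Cxcl5 lies at 90759360 to 90761624, Cxcl1 at 90891241 to 90893115 and Cxcl2 at 90903871 to 90905938, all on the plus strand, and each is a protein-coding gene. The neighbouring ELR gene Cxcl3, which is not among the 10, belongs to the same group. The 250 bases before the start of Cxcl1, Cxcl2 and Cxcl3 are shown with their matches to a relaxed NF-kB pattern. Sequences are from RefSeq (GRCm38.p6), on the genes' own strand, and end at RefSeq's start, which need not be the GENCODE start given above. They cover chr5:90890995-90891244 for Cxcl1 (its last 4 bases inside the GENCODE gene), chr5:90903649-90903898 for Cxcl2 (its last 28 bases inside) and chr5:90785851-90786100 for Cxcl3. Capitals mark every match on either strand to the relaxed NF-kB pattern (GGGA, any 4 bases, CC) or to the interferon-stimulated response element pattern (GAAA, any 2 bases, GAAA), and matches that overlap run together.
Cxcl1: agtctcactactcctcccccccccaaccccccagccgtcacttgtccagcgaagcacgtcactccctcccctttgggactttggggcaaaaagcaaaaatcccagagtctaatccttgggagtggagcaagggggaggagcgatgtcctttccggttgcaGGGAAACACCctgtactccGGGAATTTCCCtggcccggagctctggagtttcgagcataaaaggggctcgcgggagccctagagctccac
Cxcl2: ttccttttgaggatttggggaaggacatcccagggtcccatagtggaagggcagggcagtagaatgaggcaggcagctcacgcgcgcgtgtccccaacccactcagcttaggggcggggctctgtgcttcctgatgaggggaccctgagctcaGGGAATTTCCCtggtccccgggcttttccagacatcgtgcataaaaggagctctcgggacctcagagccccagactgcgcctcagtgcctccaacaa
Cxcl3: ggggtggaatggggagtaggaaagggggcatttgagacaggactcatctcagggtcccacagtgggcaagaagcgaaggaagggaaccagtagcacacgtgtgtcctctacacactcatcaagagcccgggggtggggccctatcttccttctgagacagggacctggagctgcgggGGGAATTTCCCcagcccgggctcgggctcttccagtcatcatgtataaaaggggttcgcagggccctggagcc
The relaxed match that Cxcl1 and Cxcl2 share, the NF-kB sequence GGGAATTTCC, was at 71 to 62 bases before the start of Cxcl1, at 97 to 88 before that of Cxcl2 and at 73 to 64 before that of Cxcl3. Of 32851 promoter windows of this length, 28 hold it on either strand (0.0852%), while 17.6% hold the relaxed pattern that contains it. With every base fixed it is bound to be rarer than that pattern. The sequence was picked as the match shared by Cxcl1 and Cxcl2, so their sharing it followed from the choice. The longest stretch shared by the Cxcl1 and Cxcl2 windows was 14 bases, GGGAATTTCCCTGG, around that sequence. The promoter table matched 8 of the 10 members, and Cxcl5 and Cxcl16 have no window here.

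Cxcl1, the most abundant of the 10 per length, had 3562, 3917 and 2481 CPM in GFP replicates 1 to 3, against 3016, 2598 and 2001 CPM in Tomato replicates 1 to 3. Each GFP library was above the Tomato library of the same number, but the fractions overlapped, because GFP replicate 3 was below Tomato replicates 1 and 2. The log2 fold change was 0.39 ± 0.21 (SE), which did not pass (adjusted p = 0.19). With the replicate number as a block it passed at 0.38 ± 0.12 (adjusted p = 0.0307). In a fit adjusted for GC content and transcript length, which shifts the median of all genes by 0.11, Cxcl1 was at 0.77 ± 0.23 and passed as a difference from 0 (adjusted p = 0.0386). Relative to that median it was at 0.66, which was not tested. With that adjustment and the block it was at 0.78, or 0.66 relative to the median (adjusted p = 0.000502 for the difference from 0).

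Cxcl2 had 329.9, 409 and 309 CPM in GFP and 393, 467 and 561 CPM in Tomato. It was lower in GFP in 3 of 3 pairs of equal number, while GFP replicate 2 exceeded Tomato replicate 1. The log2 fold change was -0.44 ± 0.16 and just missed the threshold (adjusted p = 0.064). It passed with the replicate block (-0.43 ± 0.13, adjusted p = 0.0312), with DESeq2 (adjusted p = 0.0309), with no filter (0.0219), with library sizes alone for scaling (0.0245) and without Tomato replicate 1 (0.0172). With the GC and length adjustment it was at -0.06 ± 0.13 (adjusted p = 0.727 for the difference from 0), and at -0.18 relative to the median of all genes, which was not tested.

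The ratio of Cxcl1 to Cxcl2 counts within a library does not depend on scaling. It was 10.8, 9.58 and 8.02 in GFP and 7.67, 5.56 and 3.56 in Tomato, so every GFP library had relatively more Cxcl1. The mean ratio was 9.47 ± 1.39 in GFP and 5.6 ± 2.05 in Tomato (SD, n = 3 each), a difference of 0.82 on the log2 scale. An exact two-sided permutation test gave p = 0.1, the smallest that 3 against 3 samples allow, so it cannot reach 0.05. This ratio and 3 others were chosen after the values were seen, and adjusted over the 4 the p was 0.13. The ratio of Cxcl1 to Cxcl3 was 117, 135 and 122 in GFP and 87.4, 52.2 and 23.4 in Tomato, again without overlap (exact permutation p = 0.1). The ratio of Cxcl1 to Cxcl5 overlapped, with 41.3, 35.2 and 23.1 in GFP and 38.1, 29.2 and 14.7 in Tomato (exact permutation p = 0.6). The remaining ratio, that of Cxcl9 to Cxcl10, was 0.128, 0.127 and 0.120 in GFP and 0.111, 0.116 and 0.0742 in Tomato, without overlap (exact permutation p = 0.1). Cxcl1, Cxcl2 and Cxcl3 are near relatives in sequence, and how reads matching more than one of them were counted is not given in the sources used here.

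**Figure D3:**
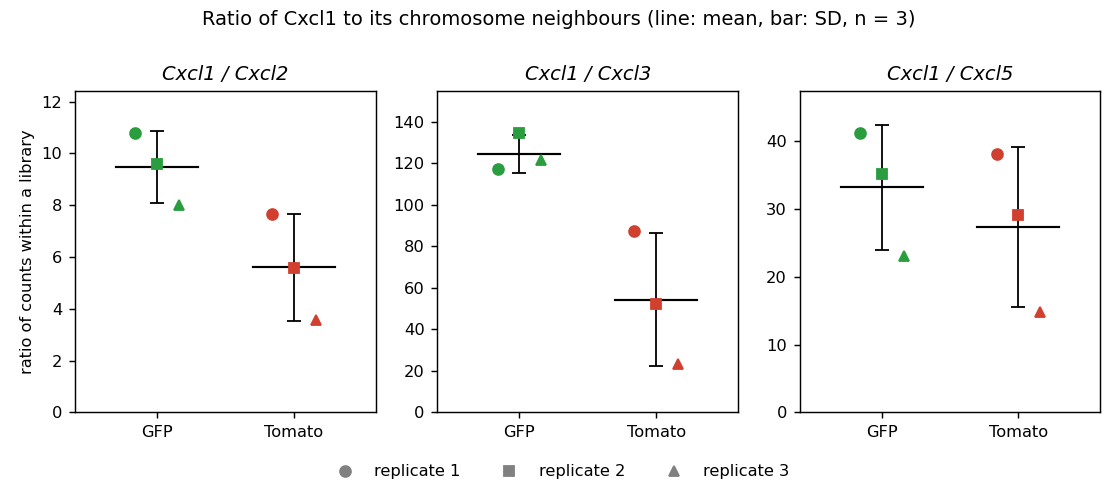
Ratio of Cxcl1 counts to those of Cxcl2, Cxcl3 and Cxcl5 within each library, GFP in green and Tomato in red, with lines for means and bars for SD (n = 3). The ratios to Cxcl2 and Cxcl3 are higher in each GFP library than in any Tomato library, and the ratio to Cxcl5 overlaps.

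Cxcl5 itself had 86.3, 111 and 107 CPM in GFP and 79.2, 89.0 and 136 CPM in Tomato. Its mean was 102 ± 13.4 CPM in GFP, close to the 101 ± 30.2 CPM of Tomato (SD), and the log2 fold change was 0.00 ± 0.20 (adjusted p = 0.988). With the block and the GC and length adjustment together it was at 0.42 (adjusted p = 0.00978 for the difference from 0), or 0.30 relative to the median of all genes, which was not tested.

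Cxcl9 (chromosome 5, 92321347 to 92328079) and Cxcl10 (92346638 to 92348889) are neighbours on the minus strand. The 250 bases before their starts, chr5:92328080-92328329 and chr5:92348890-92349139, are shown with the same capitals, since both genes are known interferon targets.
Cxcl9: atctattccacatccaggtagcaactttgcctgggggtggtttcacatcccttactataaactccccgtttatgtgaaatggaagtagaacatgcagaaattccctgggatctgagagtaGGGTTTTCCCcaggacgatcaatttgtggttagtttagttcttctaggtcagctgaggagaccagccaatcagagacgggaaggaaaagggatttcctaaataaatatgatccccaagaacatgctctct
Cxcl10: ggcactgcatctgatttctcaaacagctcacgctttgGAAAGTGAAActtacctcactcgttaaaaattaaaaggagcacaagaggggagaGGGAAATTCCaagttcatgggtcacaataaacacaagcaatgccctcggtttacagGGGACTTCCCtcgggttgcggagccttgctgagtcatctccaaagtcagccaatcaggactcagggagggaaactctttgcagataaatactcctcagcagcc
The interferon-stimulated response element pattern was at 213 to 204 bases before the start of Cxcl10, and also at 172 to 163 bases before that of Cxcl14. It was not in the Cxcl9 window, and 2.98% of all promoter windows hold it. The relaxed NF-kB pattern occurred at 2 places before Cxcl10 and at 1 before Cxcl9.

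Cxcl9, the least abundant member per length, had 27.9, 30.4 and 19.5 CPM in GFP and 26.6, 21.9 and 10.6 CPM in Tomato. It overlapped between the fractions, and its log2 fold change was 0.39 ± 0.33 (adjusted p = 0.394). Each GFP library exceeded the Tomato library of its number, and with the block it passed as higher (0.46 ± 0.14, adjusted p = 0.0337). Cxcl10 overlapped too, with 217, 238 and 163 CPM in GFP and 240.3, 189 and 143 CPM in Tomato (0.11 ± 0.21, adjusted p = 0.702). It was at -0.07 without Tomato replicate 3. With block and GC and length adjustment together it was at 0.47 (adjusted p = 0.00461 for the difference from 0), or 0.35 relative to the median of all genes, which was not tested. In that joint fit 6 members were higher (background 26.5%) and 2 lower (background 13.5%). Part of Cxcl10 lies opposite Art3, over 133 of its 2252 exon bases, and reads there cannot be given to one gene without strand. Its 2 strand columns together held 1.10 times the count used here.

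Of 15 genes of the interferon route, none was higher and 5 were lower in GFP, with a median log2 fold change of -0.08, beside a background of 13.1% higher and 15.7% lower. With the block 1 was higher and 5 were lower, beside 20.1% and 20.9%. The GTPase gene Gbp2, a standard target of interferon gamma, had 79.8, 89.3 and 63.0 CPM in GFP and 170.4, 175 and 142 CPM in Tomato (-1.07 ± 0.14, adjusted p = 0.00135). Irf8, an interferon regulatory factor of myeloid cells, was lower by a similar step (-1.12 ± 0.16, adjusted p = 0.0022). The other 3 lower genes lost their calls in most fits that leave out 1 library. Gbp3 kept its call in 2 of 6 (adjusted p up to 0.0965), Gbp5 in 2 of 6 (up to 0.127) and Irf9 in 1 of 6 (up to 0.145). Among genes with a positive fold change, the receptor gene Ifnar1 (0.21, adjusted p = 0.0936) and the signal transducer gene Stat2 (0.37, adjusted p = 0.149) did not pass, though Stat2 passed with the block (adjusted p = 0.0141). The summed macrophage markers were lower in GFP too.

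Cxcl12 (chromosome 6, 117168535 to 117181367) had 926, 1089 and 741 CPM in GFP and 907, 757 and 558 CPM in Tomato. GFP was higher in 3 of 3 pairs of equal number, the fractions overlapped, and the log2 fold change of 0.31 ± 0.20 did not pass (adjusted p = 0.265). With the block it came close (0.32 ± 0.12, adjusted p = 0.0549), and it passed under none of the 15 alternatives tried.

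Cxcl13 (chromosome 5, 95956951 to 95961068, plus strand) showed the largest difference among the 10. It had 38.0, 48.0 and 50.4 CPM in GFP, against 212, 151 and 155 CPM in Tomato. The highest GFP library stayed far below the lowest Tomato library, and GFP had 0.263 of the Tomato level. The log2 fold change was -1.93 ± 0.16 (adjusted p = 0.00019), which placed it at rank 104 of the 15608 genes by p. It was called under all 15 alternatives, with log2 fold changes from -2.08 to -1.47 before any shift of the median is taken off. The mesothelial, macrophage and epithelial marker sums were lower in GFP too, and the mesothelial and epithelial lists share Krt19, Krt8 and Krt18. Tomato replicate 1 was the highest for Cxcl13. In Tomato replicates 1 to 3 the macrophage markers summed to 1124, 1877 and 2819 CPM, and the mesothelial markers to 2174, 2407 and 2217 CPM. The mesothelial markers did not share one order. Slpi was lowest in Tomato replicate 1 (552, 609 and 695 CPM in Tomato replicates 1 to 3), and Lrrn4 was highest there (198, 196 and 119 CPM). Which cells the Cxcl13 counts came from was not tested.

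The lymphotoxin route is known to induce Cxcl13 in lymphoid stroma. Of 9 genes of this route tested, in a list of 11, none was higher and 2 were lower (1 and 2 with the block). Their median log2 fold change was -0.11. Of all genes tested, 13.1% were called higher and 15.7% lower, or 20.1% and 20.9% with the block. The adhesion molecule gene Vcam1 was lower (257 ± 7.03 CPM in GFP and 399.6 ± 21.7 CPM in Tomato, -0.64 ± 0.09, adjusted p = 0.00178). Ltb, which encodes a lymphotoxin chain, averaged 0.386 CPM in GFP and 0.815 CPM in Tomato (-1.07, adjusted p = 0.0264), and its call held without Tomato replicate 1 but in no other fit with 1 library left out (adjusted p up to 0.0893). The receptor gene Ltbr (0.21, adjusted p = 0.116) and the adaptor gene Traf3 (0.49, adjusted p = 0.0624, 0.00437 with the block) did not pass. Lta had no count in GFP and 3 in all of Tomato.

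Cxcl14 (chromosome 13, 56288643 to 56296551, minus strand) was higher in GFP. It had 356, 379 and 640.3 CPM in GFP, against 183, 214 and 241 CPM in Tomato. The fractions did not overlap, although GFP replicate 3 stood well above the other GFP libraries. GFP had 2.15 times the Tomato level (1.11 ± 0.23, adjusted p = 0.0123). Without GFP replicate 3 the log2 fold change was 0.79 (adjusted p = 0.0089), and the call was lost with no filter on low counts (1.09, adjusted p = 0.0506), where 1 member was higher (background 6.88%). GFP replicate 3 also had the highest summed pericyte level, at 104 CPM, against 79.6 and 63.6 CPM in GFP replicates 1 and 2. The rise was largest for Cspg4 (21.1, 20.3 and 41.1 CPM in GFP replicates 1 to 3). Rgs5 was lowest in GFP replicate 3 (2.83, 2.98 and 2.17 CPM), and the remaining pericyte markers were highest there by smaller steps. A link to Cxcl14 was not tested.

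Cxcl16 (chromosome 11, 70453983 to 70459984, minus strand) was lower in GFP, with 57.4, 58.4 and 57.9 CPM in GFP and 103, 130.02 and 159 CPM in Tomato. The GFP libraries were nearly identical (SD 0.501 CPM), while the Tomato libraries spread widely (SD 28.0 CPM), and GFP had 0.443 of the Tomato level. The log2 fold change was -1.17 ± 0.15 (adjusted p = 0.00105), called under all 15 alternatives. In Tomato, replicate 1 was lowest and replicate 3 highest both for Cxcl16 and for the summed macrophage markers. In GFP those markers summed to 158, 245 and 250.2 CPM while Cxcl16 stayed level. Its GFP spread, at 1956 to 2131 counts, was smaller than counting error usually gives, so its order there cannot be compared with theirs. Part of Cxcl16, 552 of its 3021 exon bases, lies opposite Zmynd15, and its 2 strand columns together held 1.18 times the count used here. On a single strand column the call remained (log2 fold change -1.23, adjusted p = 0.000894). That column cannot separate the 2 genes, because Cxcl16 reads fell about equally on both strands (49.7% to 51.9% forward).

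Cx3cl1 (chromosome 8, 94772009 to 94782427, plus strand) was higher in GFP, with 75.0, 74.7 and 80.0 CPM in GFP and 44.8, 50.4 and 46.6 CPM in Tomato. Both fractions were tight, and the lowest GFP library lay well above the highest Tomato library. GFP had 1.62 times the Tomato level (0.69 ± 0.09, adjusted p = 0.00105), called under all 15 alternatives. Of the markers of endothelium, which is known to make fractalkine, 6 of 11 passed as higher and 1, Esam, as lower (-3.58, adjusted p = 0.000132). Tek (0.8, adjusted p = 0.182, 0.00125 with the block), Erg (0.74, adjusted p = 0.0993), Vwf (0.05, adjusted p = 0.936) and Kdr (-0.39, adjusted p = 0.151) did not pass. Within GFP, the endothelial markers summed to 212, 164 and 141 CPM in replicates 1 to 3. Cx3cl1 spread too little there (SD 2.96 CPM) for its order to be compared with theirs. Which cells the Cx3cl1 counts came from was not tested.

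Cxcl16 and Cx3cl1 are released from the membrane by Adam10 and Adam17, and neither protease gene passed. Adam10 had 159 ± 28.2 CPM in GFP and 132 ± 4.38 CPM in Tomato (0.27, adjusted p = 0.143), and Adam17 111 ± 19.5 CPM in GFP and 101 ± 7.53 CPM in Tomato (0.14, adjusted p = 0.427). Of 8 genes of proteases that shed or trim these chemokines, 2 were higher and 1 was lower (2 and 2 with the block), with a median log2 fold change of 0.13. The background was 13.1% higher and 15.7% lower (20.1% and 20.9% with the block). The metalloproteinase genes Mmp14 (0.55 ± 0.10, adjusted p = 0.00591) and Mmp2 (0.92 ± 0.19, adjusted p = 0.00876), whose products can cut Cxcl12, were higher. The macrophage elastase gene Mmp12, whose product is known to trim ELR chemokines, was lower (-3.29 ± 0.25, adjusted p = 0.00019), and the neutrophil collagenase gene Mmp8 was at -0.79 (adjusted p = 0.0676, 0.0128 with the block).

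By level per length, in TPM (counts per exon base relative to a common total), the order of the genes differed between the fractions. Cxcl1 led both, with 5722 ± 1116 TPM in GFP and 4268 ± 876 TPM in Tomato (SD, n = 3 each). In GFP the order went on with Cxcl14 (820 ± 309 TPM), Cxcl2 (547 ± 59.5), Cxcl12 (363 ± 55.4), Cxcl10 (296 ± 46.6), Cxcl5 (177 ± 22.0), Cxcl13 (128 ± 19.5), Cx3cl1 (63.3 ± 4.67), Cxcl16 (62.2 ± 2.15) and Cxcl9 (27.8 ± 5.29). Among neighbours in that order, Cxcl12 and Cxcl10 overlapped, and so did Cx3cl1 and Cxcl16. In Tomato it went on with Cxcl2 (722 ± 124 TPM), Cxcl13 (473 ± 93.3), Cxcl14 (367 ± 48.5), Cxcl12 (286 ± 68.7), Cxcl10 (267 ± 69.2), Cxcl5 (171 ± 49.7), Cxcl16 (136 ± 28.4), Cx3cl1 (37.9 ± 2.53) and Cxcl9 (20.6 ± 8.69). There every neighbouring pair from Cxcl14 down to Cxcl16 overlapped, and the other pairs did not. Cxcl13 was therefore 7th of 10 in GFP and 3rd in Tomato, and Cxcl14 was 2nd in GFP and 4th in Tomato (5th when the longest transcript set the length).

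Of the summed TPM of the 10 genes, Cxcl1 made up 69.3% ± 6.30 in GFP and 62.8% ± 5.34 in Tomato (SD, n = 3 each). Cxcl14 held 10.4% ± 5.24 in GFP and 5.56% ± 1.43 in Tomato, and Cxcl13 held 1.59% ± 0.410 in GFP and 6.99% ± 0.797 in Tomato. Cxcl2 held 6.67% ± 0.454 in GFP and 10.97% ± 3.28 in Tomato. Cxcl12 has a long annotated exon set of 8176 bases, and its share was 4.41% in GFP and 4.19% in Tomato, or 6.26% in GFP and 5.94% in Tomato when the longest transcript of each gene set its length.

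**Figure D4:**
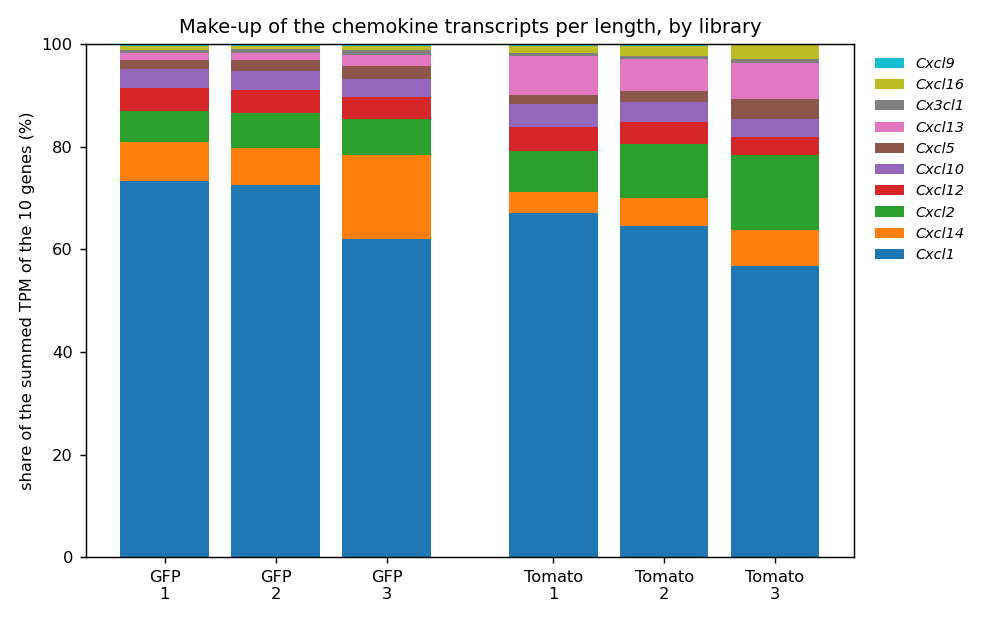
Share of each chemokine gene in the summed TPM of the 10 genes, in percent, as a stacked bar for each library, GFP on the left. Cxcl1 forms the largest block in every bar, the Cxcl13 block is thin in GFP (mean 1.59%) and thick in Tomato (mean 6.99%), and Cxcl14 is largest in GFP replicate 3 (16.4%).

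Among the other CXC ligand genes, Cxcl3, Pf4 and Ppbp were tested, and all 3 were lower in GFP (2 with the block). The background of lower genes was 15.7%, and 20.9% with the block. Cxcl3 had 30.3, 29.1 and 20.4 CPM in GFP and 34.5, 49.7 and 85.6 CPM in Tomato. Its groups did not overlap, but its call (-1.09 ± 0.33, adjusted p = 0.0455) was lost with the block (-1.0, adjusted p = 0.133). Of the 6 fits that leave out 1 library, the one without Tomato replicate 1 kept it (adjusted p up to 0.11 in the others), and over all alternatives its adjusted p reached 0.239. The platelet chemokine gene Pf4, which macrophages also express, averaged 3.26 CPM in GFP and 20.1 CPM in Tomato (-2.62 ± 0.58, adjusted p = 0.0167). The Pf4 call was lost without GFP replicate 2 (0.0536) without Tomato replicate 3 (0.0926) and with no filter (0.101). Ppbp, the other platelet chemokine gene, was lower too (0.294 CPM in GFP and 1.94 CPM in Tomato, -2.71 ± 0.49, adjusted p = 0.00555). Cxcl11, Cxcl15 and Cxcl17 were too low to test, with at most 17 counts in any library.

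The genes of the signalling receptors of these ligands were low in both fractions, and Cx3cr1, Cxcr2 and Cxcr4 were lower in GFP. Cx3cr1, the fractalkine receptor gene of monocytes and macrophages, had 0.135, 0.597 and 0.366 CPM in GFP and 4.74, 6.51 and 13.0 CPM in Tomato (-4.47 ± 0.56, adjusted p = 0.00173). Its ligand gene Cx3cl1 was higher in the fraction where the receptor gene was lower. Cxcr2, the neutrophil receptor gene for the ELR ligands, averaged 0.206 CPM in GFP and 1.83 CPM in Tomato (-3.12 ± 0.36, adjusted p = 0.000798). Cxcr4, the Cxcl12 receptor gene, averaged 0.539 CPM in GFP and 2.83 CPM in Tomato (-2.38 ± 0.33, adjusted p = 0.00169). The summed white blood cell markers were lower in the same libraries. Cxcr5 (0.10, adjusted p = 0.836) and Cxcr6 (-0.35, adjusted p = 0.506) did not pass, and Cxcr1 and Cxcr3 had at most 8 counts in any library.

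The atypical receptor genes, whose products bind chemokines without G protein signalling, number 4 in this list, and Ackr1 and Ackr2 passed as higher. Of the 9 receptor genes tested in all, 2 were higher and 3 lower (4 and 3 with the block), with a median log2 fold change of 0.10. Over all genes tested the shares were 13.1% higher and 15.7% lower (20.1% and 20.9% with the block). Ackr2, a scavenger of inflammatory CC chemokines in lymphatic endothelium, had 30.2, 24.1 and 14.7 CPM in GFP and 4.92, 4.86 and 2.01 CPM in Tomato (2.54 ± 0.39, adjusted p = 0.00454). It was called without each single library in turn. Ackr1, the chemokine receptor gene of venular endothelium and red cells, averaged 3.64 CPM in GFP and 1.66 CPM in Tomato (1.13 ± 0.27, adjusted p = 0.0157). Leaving out GFP replicate 1 (0.0631) ended the Ackr1 call, as did leaving out GFP replicate 2 (0.0553) and Tomato replicate 2 (0.0623). In the same libraries all 6 lymphatic endothelial markers tested were higher in GFP, and of the 11 endothelial markers 6 were higher and 1 was lower. Ackr3, which takes up Cxcl12, overlapped between the fractions, with 532, 528 and 330.4 CPM in GFP and 495, 330.4 and 208 CPM in Tomato (0.43 ± 0.32, adjusted p = 0.347). It passed with the block (0.48, adjusted p = 0.0155), as did Ackr4 (0.57, adjusted p = 0.0125), which without it was at 0.55 ± 0.19 (adjusted p = 0.0585).

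**Figure D5:**
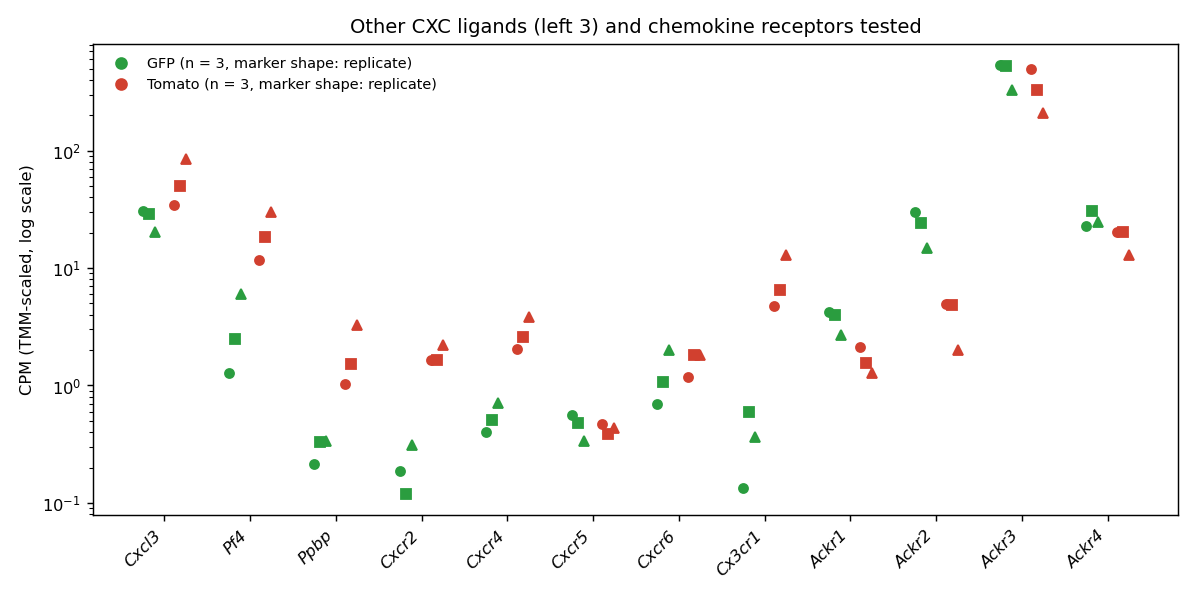
TMM-scaled CPM on a log scale of the other CXC ligand genes and the chemokine receptor genes tested, 1 point per library, GFP in green left of Tomato in red. Cxcr2, Cxcr4 and Cx3cr1 lie lower in GFP and Ackr1 and Ackr2 higher, and the Ackr3 libraries of the fractions overlap.

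Of 16 genes of the interleukin 1, TNF and NF-kB route, 1 was higher and 1 was lower in GFP (5 and 2 with the block), with a median log2 fold change of 0.18. The interleukin 17 receptor gene Il17ra was higher (69.3 ± 8.26 CPM in GFP and 45.5 ± 10.2 CPM in Tomato, 0.61 ± 0.17, adjusted p = 0.0299), and the TNF receptor gene Tnfrsf1b was lower (-0.32 ± 0.10, adjusted p = 0.0405). Each of these calls was lost in 4 of 6 fits that leave out 1 library, where adjusted p reached 0.1 for Il17ra and 0.15 for Tnfrsf1b. The Tnfrsf1b call was also lost with the GC and length adjustment (0.169). Nfkb2 (0.32, adjusted p = 0.052) and the interleukin 1 receptor subunit gene Il1rap (-0.39, adjusted p = 0.0564) missed the threshold and passed with the block (0.0128 and 0.00921). Of 11 feedback and mRNA decay genes 1 was higher and none lower (3 and none with the block), with a median of 0.06. Zfp36l1, an mRNA decay factor gene, was higher (0.46 ± 0.15, adjusted p = 0.0451), a call lost in 4 of 6 fits without 1 library (adjusted p up to 0.148) and when library sizes alone set the scaling (0.106). Its relative Zfp36, whose product is known to bind Cxcl1 and Cxcl2 mRNA, had 4341 ± 415 CPM in GFP and 3217 ± 604 CPM in Tomato (0.43, adjusted p = 0.0825, 0.0176 with the block). Zc3h12a, which encodes an RNase that cuts inflammatory mRNAs (-0.11, adjusted p = 0.493), and the interleukin 17 adaptor gene Traf3ip2 (-0.11, adjusted p = 0.575) did not pass. Over all 7 lists of related genes, 6 of 71 genes tested were higher and 15 lower, beside a background of 13.1% and 15.7%. With the block 16 were higher and 16 lower, beside a background of 20.1% and 20.9%.

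For the 4 members past the threshold, the genes with the most similar profile over the 6 libraries were found among 9234 protein-coding genes with at least 10 CPM in the higher fraction. Likeness is the root mean square difference of log2 CPM after each gene's own mean was taken off. It describes a shared difference between the fractions and shared scatter over these libraries, not a shared level. The 4 members were picked for their difference between the fractions, so their closest genes were bound to share it. The closest to Cxcl13 were Zfp185 (0.139) and Pard6b (0.151), and the closest to Cxcl14 were the prokineticin receptor gene Prokr2 (0.132) and the smooth muscle actin gene Actg2 (0.133). Cxcl16 was closest to Acp5, the tartrate-resistant phosphatase gene of osteoclasts and macrophages (0.0423), and to the kinase gene Mapkapk3 (0.0540). Cx3cl1 was closest to the sphingosine kinase gene Sphk1 (0.0669) and to Zfp9 (0.0730). Acp5 had 32.0, 33.5 and 34.4 CPM in GFP and 57.7, 71.3 and 93.4 CPM in Tomato, with even GFP libraries and spread Tomato libraries, as for Cxcl16.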

How the data were processed

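The deposited tables hold raw read counts per gene for each library, in 3 columns (both strands, forward and reverse), per the file headers. Reads were trimmed with Trim Galore 0.4.3 and aligned with STAR 2.5.2b to GRCm38, per the submitters' processing notes, and the annotation release is not given in the sources used here. Gene names and positions came from GENCODE M21, which matched 49412 of 49671 gene IDs (0.0076% of counts were unmatched). The both-strand counts were tested with edgeR 4.0.16 in R 4.3.3 (robust quasi-likelihood test, TMM scaling, its standard filter on low counts), with Benjamini-Hochberg adjustment over 15608 genes. Levels per length are TPM computed from these counts and the union of exons.

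Deviations from the group means correlated at 0.403, 0.108 and 0.347 between libraries of equal number and at -0.392 to 0.0281 between others. Each pair of equal number exceeded the limit of 0.1, that of replicate 2 narrowly. The numbers therefore pair the libraries by that measure, which rests on the data and not on the labels. Deviations cancel within a fraction, so these correlations are not independent of each other. The main fit and the permutation tests have no block, and the pairing enters only the fits named as having one. Alternatives were another scaling (RLE) and library size alone, no filter, DESeq2 1.42.0, limma-voom (limma 3.58.1), the replicate block, an adjustment for GC and length (spline with 4 degrees of freedom), both together, a single strand column, each library left out, and the longest transcript as length. For the chemokine members, with at least 390 counts in each library, counting error is small and in general the spread between libraries limits precision. Cxcl16 in GFP is an exception. Its SD of 0.501 CPM around a mean of 57.9 CPM is below counting error at 1956 to 2131 counts. Counting error is larger for genes with few counts, such as Cxcr2 (4 to 81 per library) and Ltb (12 to 34).

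The members and the gene lists were chosen with earlier results of these data known. Named were all members, the tested ligand and receptor genes, and in each further list the 2 higher and 2 lower genes with the smallest adjusted p. Adam10, Adam17, Lta, Gbp3, Gbp5, Irf9, Esam, Vwf, Erg, Rgs5, Lrrn4, Krt18, Ccl21a and Ly6g were named after their values were seen. For each member past the threshold, the 2 closest genes were named.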

Additional observations from a re-analysis of the deposited data

How the results depend on the processing

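The replicate block left the calls of Cxcl13, Cxcl14, Cxcl16 and Cx3cl1 in place, added Cxcl1, Cxcl2 and Cxcl9 and changed no other member's call. The count of members higher in GFP was 2 (13.1% of all genes tested were), and it was 4 with the block (20.1%). It was 3 with the GC and length adjustment (18.4%), 6 with both (26.5%) and 1 with no filter (6.88%). Without each single library it was 2, where 5.21% to 14.9% of all genes were higher. The count lower stayed at 2 or 3 under all 15 alternatives, where 8.61% to 24.7% of all genes were lower. Of the genes in the related lists, 16 were higher with the block (where 20.1% of all genes tested were), against 6 without it (13.1%). Leaving out single libraries gave 3 to 12 higher, with 3 without GFP replicate 1 (5.74% of all genes) or Tomato replicate 2 (5.21%) and 12 without Tomato replicate 1 (14.9%). It gave 9 to 12 lower, against 15, with 9 without Tomato replicate 2 (9.56% of all genes). Library sizes alone for scaling shifted the median of all genes by -0.16, and the signs of Cxcl10 (-0.047) and Cxcl5 (-0.17) turned with that shift. Relative to it they were at 0.12 and -0.01, against 0.11 and 0.00 with TMM. Cxcl5 was at -0.009 with no filter. Leaving out single libraries gave Cxcl10 -0.065 to 0.306 and Cxcl5 -0.153 to 0.265. The cause of the other changes was not tested, beyond fewer samples in the fits without a library.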

Other observations

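Within each fraction, Cxcl1, Cxcl9, Cxcl10 and Cxcl12 were all lowest in replicate 3, in GFP and in Tomato alike, and Cxcl14 was highest in replicate 3 of both. Summed over the 10 chemokine genes, CPM were 5676, 6354 and 4649 in GFP replicates 1 to 3 and 5206, 4668 and 4010 in Tomato replicates 1 to 3.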
